A study of Rattus norvegicus with 32 samples.

Results

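Expression of 8 genes used as markers of thalamic neurons (Prkcd, Tcf7l2, Lef1, Slc17a6, Ntng1, Rora, Gbx2 and Zic1) was examined by gene symbol among the 28914 genes of the rat RNA-seq count files, in all 32 libraries. Prkcd was chosen by its CPM in the saline libraries, where the SVZ had been seen to exceed the other regions, and the other 7 genes were added as markers of the same neurons, so the regional levels in saline animals are described here without a test. The libraries came from the nucleus accumbens (NAc), dentate gyrus (DG), cornu ammonis (CA) and subventricular zone (SVZ) of adult male Sprague-Dawley rats. METH animals received methamphetamine at 10 mg/kg by intraperitoneal injection, 4 times at intervals of 2 h, and Sal animals received saline on the same schedule. Each region has 4 Sal and 4 METH libraries, which are named by region, treatment and replicate number. The NAc and SVZ were punched out of frozen slices of the anterior brain and the DG and CA were scooped out of the posterior brain, with 1 hemisphere per rat going to RNA-seq. No source used here states which libraries share a rat, although library numbers in the file headers recur across the NAc, DG and CA, so p-values measure only the spread between these libraries, which may in part be technical.

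The thalamus relays sensory and motor signals to the cortex, and its excitatory neurons differ from cortical ones in the glutamate transporter they use. Prkcd encodes protein kinase C delta, a signaling kinase that is abundant in thalamic relay nuclei. Tcf7l2 and Lef1 are transcription factors of the Wnt pathway that stay on in thalamic neurons after development, and Rora is a nuclear receptor of sensory thalamic nuclei and of the cerebellum. Slc17a6 (VGLUT2) loads glutamate into synaptic vesicles and is used throughout the thalamus, hypothalamus and habenula. Ntng1 encodes netrin-G1, an adhesion molecule on thalamocortical axons. Gbx2 is a homeodomain factor of the developing thalamus, and Zic1 is a zinc finger factor found in the thalamus and the septum. None of the 8 genes is made by the thalamus alone.

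The DNA before the start sites of Prkcd, Tcf7l2 and Slc17a6 is shown because Prkcd led the selection, Tcf7l2 was the member most like it over the 32 libraries and Slc17a6 was the single member with a searched motif. RefSeq (GRCr8) gave a promoter for 7 of the 8 genes. The 250 bases before the start were read 5′ to 3′ on the strand of the gene, and capitals mark a TCF/LEF motif. They lie at chr16:5805840-5806089 on the minus strand for Prkcd, at chr1:264791085-264791334 on the plus strand for Tcf7l2 and at chr1:110348197-110348446 on the plus strand for Slc17a6.
Prkcd: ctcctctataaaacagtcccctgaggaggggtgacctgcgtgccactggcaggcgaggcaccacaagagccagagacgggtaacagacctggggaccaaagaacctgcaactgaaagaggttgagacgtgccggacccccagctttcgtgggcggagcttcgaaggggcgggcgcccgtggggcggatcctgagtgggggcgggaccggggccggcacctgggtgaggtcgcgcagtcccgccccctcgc
Tcf7l2: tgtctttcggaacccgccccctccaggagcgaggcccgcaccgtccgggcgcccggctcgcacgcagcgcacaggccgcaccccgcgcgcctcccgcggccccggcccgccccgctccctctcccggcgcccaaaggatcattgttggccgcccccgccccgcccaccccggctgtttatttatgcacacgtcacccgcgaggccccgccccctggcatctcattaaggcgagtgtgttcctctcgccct
Slc17a6: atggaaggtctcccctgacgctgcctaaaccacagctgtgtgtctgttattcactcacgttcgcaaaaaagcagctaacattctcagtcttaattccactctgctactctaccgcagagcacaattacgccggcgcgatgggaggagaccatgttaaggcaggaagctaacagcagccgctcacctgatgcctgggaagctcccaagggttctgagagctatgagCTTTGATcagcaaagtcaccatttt
Both strands were searched for ATCAAAG and TTCAAAG (bound by TCF7L2 and LEF1) and for TAGGTCA (bound by RORA). The first pair shares the letters TCAAAG, so no stretch of DNA counts for both. Of 33469 RefSeq promoters of the same length, 3.15% held ATCAAAG, 4.68% held TTCAAAG and 2.26% held TAGGTCA. Slc17a6 held 1 match to ATCAAAG, on the reverse strand, beginning 25 bases before the start. The other 6 promoters held none of the 3 motifs, which says only that these letters are not in this window. The share of G and C was 67.6% before Prkcd, 73.6% before Tcf7l2 and 50.8% before Slc17a6, beside a median of 51.2% over all promoters.

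Total counts ran from 11094002 to 21869773 reads per library, and levels are given as CPM, the read count scaled to a common library size after upper-quartile normalization, in which 1 read is worth 0.0459 to 0.0940 CPM. All 8 SVZ libraries come from a sequencing run of their own according to the file headers, so region and run cannot be told apart. In the headers, SVZ METH 1 and METH 2 carry 1 library number, and METH 3 and METH 4 carry another. The word EXTRA stands in the headers of SVZ Sal 1, Sal 2, METH 2 and METH 4. In the other regions each library number stands once per region, and whether it marks a rat is not stated. The numbers 14 and 15 stand on Sal libraries in the NAc and CA but on METH 1 and METH 2 in the DG, and 20 and 21 stand on METH libraries in the NAc and CA but on Sal 1 and Sal 2 in the DG. A column name of the deposited count matrix gives SVZ Sal 1 the number 14 as well, where its header has 1667. Groups were taken from the labels throughout, and the bearing of these numbers on the values was not tested. A number of libraries stood apart from others of their label when marker lists were summed. The library labelled DG Sal 3 had 129.0 CPM over 7 cortical glutamatergic genes (led by Slc17a7), against 1439 to 2177 in the other DG libraries, and 2058 CPM over 9 genes of striatal medium spiny neurons, against 180.4 to 480.6. The library labelled NAc METH 3 had 286.7 CPM of the striatal genes, against 1753 to 9267 in the other NAc libraries, and 1708 CPM over 9 hypothalamic genes, against 4.18 to 45.3.

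Within the SVZ, 6 of the 8 genes had their 3 highest levels in the same libraries, SVZ Sal 1, METH 2 and METH 4, and Zic1 and Gbx2 did not. Prkcd (chr16:6655120-6675746 in rn6, minus strand) was at 936.7, 33.0, 96.1 and 121.8 CPM in SVZ Sal 1 to 4. In SVZ METH 1 to 4 it was at 79.1, 804.0, 205.3 and 596.3 CPM. Prkcd in each of these 3 libraries was 2.90 to 4.56 times its level in SVZ METH 3, the next highest of the 32, and the Sal and METH groups overlapped. Outside the SVZ, Prkcd ranged from 5.96 to 77.4 CPM with a median of 17.6 CPM over 24 libraries. SVZ Sal 2, at 33.0 CPM, lay within that range. Outside the SVZ, Prkcd was highest in DG METH 3, at 77.4 CPM, and in the library labelled DG Sal 3, at 65.8 CPM, and the other 22 libraries were at 27.5 CPM or below.

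Both Wnt pathway factors followed Prkcd. Tcf7l2 (chr1:276659542-276730514 in rn6, plus strand) was at 260.7, 18.5, 14.1 and 44.3 CPM in SVZ Sal 1 to 4 and at 25, 258.5, 95.7 and 148.5 CPM in SVZ METH 1 to 4. Lef1 (chr2:236233239-236345056 in rn6, plus strand) was at 110.9, 4.28, 4.43 and 7.37 CPM in SVZ Sal 1 to 4 and at 4.90, 115.1, 12.4 and 66.3 CPM in SVZ METH 1 to 4. The 3 libraries with high Prkcd were again the highest for both genes, and SVZ METH 3 was intermediate for Tcf7l2. Outside the SVZ, Tcf7l2 ranged from 9.15 to 40.2 CPM and Lef1 from 2.15 to 16.9 CPM, both with their highest level in DG METH 3. Lef1 in the other 5 SVZ libraries stayed between 4.28 and 12.4 CPM, within the range outside the SVZ.

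The genes of excitatory transmission and axon contact showed the same order. Slc17a6 (chr1:106998623-107038704 in rn6, plus strand) was at 308.0, 13.1, 2.45 and 34.0 CPM in SVZ Sal 1 to 4 and at 13.7, 262.0, 131.0 and 161.8 CPM in SVZ METH 1 to 4. Ntng1 (chr2:212696624-212852870 in rn6, minus strand) was at 258.8, 14.5, 9.29 and 25.1 CPM in SVZ Sal 1 to 4 and at 13.2, 215.1, 59.7 and 136.4 CPM in SVZ METH 1 to 4. SVZ METH 4 exceeded NAc METH 3 by 1.04 times for Slc17a6, the narrowest gap among these 6 genes. Rora (chr8:75516904-75607212 in rn6, plus strand) was at 208.2, 17.3, 20.9 and 28.7 CPM in SVZ Sal 1 to 4 and at 15.7, 204.8, 41.0 and 142.2 CPM in SVZ METH 1 to 4. For Ntng1 and Rora the other 5 SVZ libraries, at 9.29 to 59.7 and 15.7 to 41.0 CPM, overlapped the libraries of the other regions, at 7.99 to 65.0 and 15.3 to 51.2 CPM.

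Zic1 did not share this order, and Gbx2 shared it in part. Zic1 (chr8:98734295-98738446 in rn6, minus strand) was at 127.9, 29.8, 83.0 and 155.2 CPM in SVZ Sal 1 to 4 and at 82.0, 93.9, 102.0 and 76.6 CPM in SVZ METH 1 to 4. Its highest level was in SVZ Sal 4, and the 4 SVZ METH libraries lay within a narrow range. Gbx2 (chr9:97063728-97065817 in rn6, minus strand) was at 4.76, 3.94, 0.241 and 0.115 CPM in SVZ Sal 1 to 4 and at 0.106, 2.84, 0.781 and 1.88 CPM in SVZ METH 1 to 4. SVZ Sal 1, METH 2 and METH 4 were thus above the other SVZ libraries except Sal 2, which exceeded METH 2 and METH 4. The 4 highest SVZ libraries for Gbx2 are those with EXTRA in the header, and the part of this was not tested. In the NAc Gbx2 lay between 0.452 and 3.54 CPM, and it was found with 0 reads in 6 libraries of the DG and CA, which allows up to 0.213 to 0.262 CPM at 3 reads per library (counting error only). The SVZ and NAc libraries overlapped in Gbx2.

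**Figure D1:**
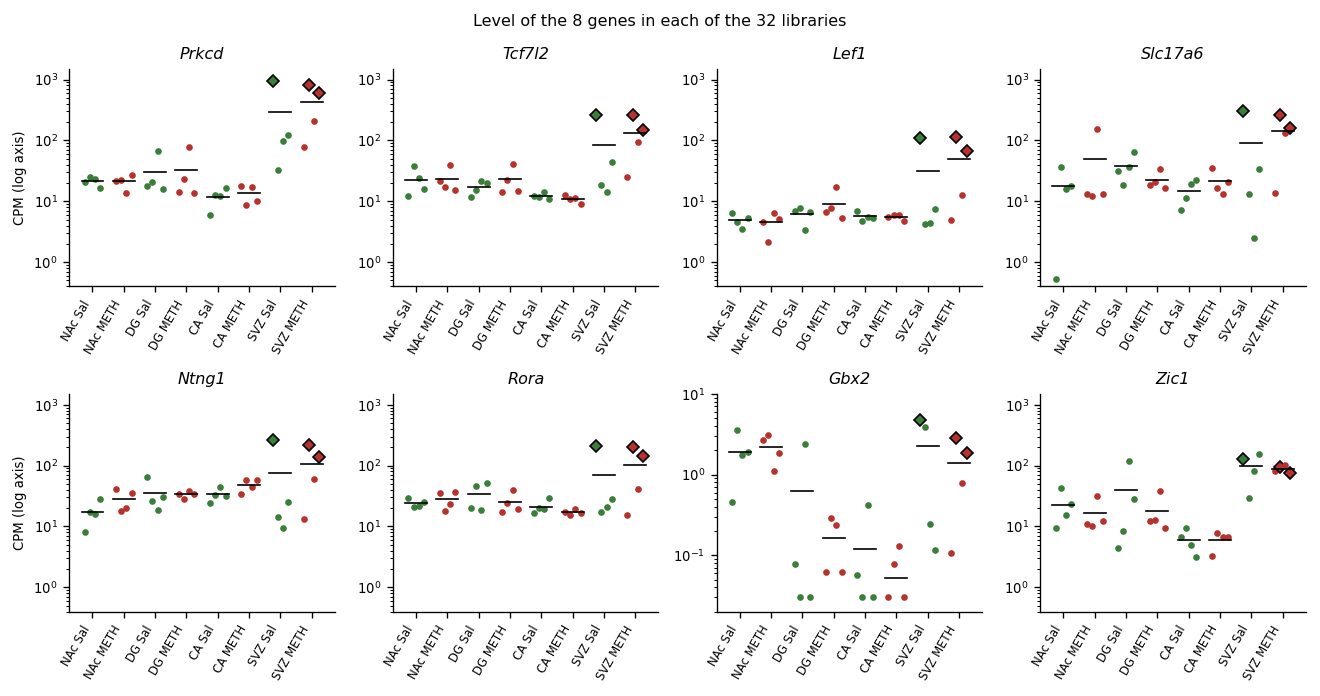
Level of the 8 genes in each library in CPM on a log axis, by region and treatment (green, Sal, and red, METH), with the mean of each group of 4 libraries as a line. Diamonds mark SVZ Sal 1, SVZ METH 2 and SVZ METH 4, which are the highest for Prkcd, Tcf7l2, Lef1, Slc17a6, Ntng1 and Rora but not for Zic1, and the 6 libraries with 0 reads of Gbx2 are drawn at 0.03 CPM.

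The levels of the 6 genes that shared the order of Prkcd stood in roughly similar proportions among the 3 libraries. Relative to SVZ Sal 1, SVZ METH 2 held 0.858 of the level of Prkcd, 0.992 of Tcf7l2, 1.04 of Lef1, 0.851 of Slc17a6, 0.831 of Ntng1 and 0.984 of Rora. SVZ METH 4 held 0.637, 0.570, 0.598, 0.525, 0.527 and 0.683 of the SVZ Sal 1 level of the same genes in the same order. SVZ METH 2 was thus above SVZ METH 4 for each of the 6 genes. The same held for Zic1, at 0.734 and 0.599 of its SVZ Sal 1 level, and for Gbx2, at 0.597 and 0.394. The METH 4 value of Zic1 lay within the range of the 6 genes, so this proportion does not set them apart from it. Per kilobase of gene model, Prkcd was the most abundant of the 8 genes in SVZ Sal 1, at 342.4 CPM per kb, followed by Rora at 123.2, Slc17a6 at 76.0, Tcf7l2 at 74.8, Ntng1 at 64.1, Zic1 at 62.2, Lef1 at 43.0 and Gbx2 at 4.55 CPM per kb. A higher level in bulk tissue may be more cells of a type or more RNA per cell, and these cannot be told apart.

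Likeness to Prkcd was measured as the correlation of log2(CPM + 1) across the 32 libraries among genes with a mean of at least 1 CPM, 14454 beside Prkcd. These values are descriptions, since the libraries fall into clusters by region and share depth and run. The 5 genes most like Prkcd were AABR07007000.1 (r = 0.91), Alpk2 (0.91), Fis1 (0.91), Rgs3 (0.91) and Grid2ip (0.90), and Tcf7l2 was the 7th at 0.90. Within the 8 SVZ libraries their r with Prkcd was 0.96, 0.97, 0.84, 0.97 and 0.78, while in the 8 NAc libraries it was -0.48, -0.27, -0.29, -0.27 and -0.09. In the DG it was 0.76, 0.89, 0.87, 0.71 and 0.82, and in the CA -0.01, -0.08, 0.30, 0.19 and -0.22. Of the other members, Zic1 reached 0.80, Lef1 0.80, Rora 0.79, Slc17a6 0.60, Ntng1 0.51 and Gbx2 0.46 over the 32 libraries. Without SVZ Sal 1, METH 2 and METH 4, r over the 29 other libraries was 0.82 for Zic1, 0.70 for Tcf7l2, 0.30 for Rora, 0.25 for Lef1, 0.18 for Slc17a6, 0.17 for Gbx2 and -0.25 for Ntng1. In the SVZ alone Rora (0.97), Lef1 (0.96), Ntng1 (0.95), Tcf7l2 (0.94) and Slc17a6 (0.86) were closer to Prkcd than Zic1 (0.55) and Gbx2 (0.43).

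The single gene most like each other member was AABR07007000.1 for Tcf7l2 (r = 0.95), Alpk2 for Lef1 (0.95), Akap12 for Slc17a6 (0.87), Kcnc2 for Ntng1 (0.90), Gbe1 for Rora (0.93) and Dstyk for Gbx2 (0.83). For Zic1 it was Zic4, another zinc finger factor of the same family (0.97). Of the leading genes of the 8 members, Zic4 was the 1 with a positive r in each of the 4 regions that did not fall under 0.76, at 0.95 in the NAc, 0.99 in the DG, 0.81 in the CA and 0.76 in the SVZ.

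**Figure D2:**
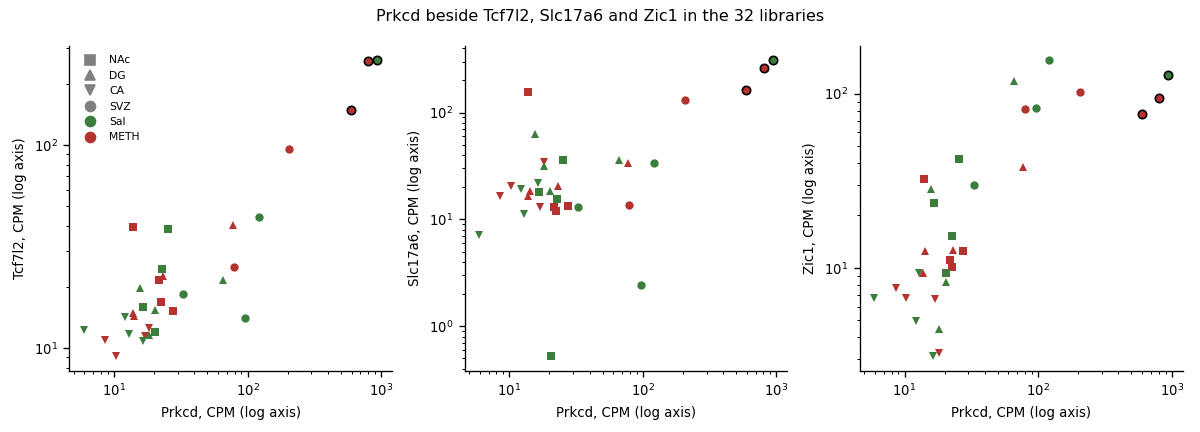
Tcf7l2, Slc17a6 and Zic1 against Prkcd in the 32 libraries, in CPM on log axes, with shapes for regions, colors for treatment and black outlines for SVZ Sal 1, SVZ METH 2 and SVZ METH 4. These 3 libraries lie at the upper right for Tcf7l2 and Slc17a6, while NAc METH 3 (156.2 CPM of Slc17a6 at 13.9 CPM of Prkcd) lies apart, and Zic1 levels off at about the height of the other SVZ libraries.

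Other genes were summed by list in the same libraries. The list of 15 other thalamic genes reached 1835, 1613 and 1072 CPM in SVZ Sal 1, METH 2 and METH 4, against 358.8 to 669.2 CPM in the 5 other SVZ libraries and 323.9 to 482.1 CPM outside the SVZ. The members of that list did not all share this order. Tnnt1 and Foxp2, chosen after their values were seen, were lower in the 3 libraries than in the 5 other SVZ libraries. Tnnt1 was at 2.45, 1.34 and 1.88 CPM in SVZ Sal 1, METH 2 and METH 4, against 8.13 to 23.8 CPM in the 5 other SVZ libraries, and Foxp2 at 31.0, 30.7 and 29.6 CPM, against 50.4 to 135.4 CPM. Oligodendrocyte markers (8 genes, with Mbp and Mobp, which build myelin, among them) summed to 19437, 26760 and 28363 CPM in SVZ Sal 1, METH 2 and METH 4. The 5 other SVZ libraries held 4029 to 9906 CPM of them and the libraries outside the SVZ 2405 to 14986 CPM.

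Neuroblast, ependymal, striatal and septal marker lists were at their lowest among the SVZ libraries in these 3. Neuroblast and stem cell markers (8 genes, led by Dcx) summed to 60.2, 56.9 and 62.8 CPM in SVZ Sal 1, METH 2 and METH 4, against 106.3 to 457.0 CPM in the 5 other SVZ libraries. Ependymal markers (5 genes) summed to 62.6, 38.0 and 35.1 CPM, against 71.6 to 331.5 CPM. Striatal medium spiny neuron markers (9 genes, led by Ppp1r1b) summed to 342.0, 243.3 and 918.7 CPM, against 1803 to 6566 CPM, and the 7 septal markers to 43.0, 41.7 and 71.6 CPM, against 130.1 to 322.2 CPM. The septal list does not set the SVZ apart, since the CA libraries held 213.5 to 443.2 CPM of it. The part of neighboring tissue in the values was not tested.

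Choroid plexus and habenular markers did not separate the libraries in the same way. The 8 choroid plexus markers (led by Ttr) were at 391.2, 116.4 and 21.8 CPM in SVZ Sal 1, METH 2 and METH 4 but at 8384 CPM in SVZ METH 3, and Otx2 had 0 reads in the former 3. The 8 habenular markers were at 32.1, 41.0 and 53.8 CPM, within the 31.0 to 70.9 CPM of the 5 other SVZ libraries, with Pou4f1 at 0 reads in all 3. The 9 hypothalamic markers were high in the 3 libraries, at 150.0, 117.1 and 82.0 CPM, and in SVZ METH 3, at 131.2 CPM, and the 4 other SVZ libraries held 6.56 to 15.9 CPM. Their part in the values of the 8 genes was not tested. Astrocyte (2866 to 3208 CPM, against 2659 to 3517 CPM) and microglial markers (193.6 to 220.6 CPM, against 156.3 to 186.2 CPM) covered narrower ranges. The microglial markers were higher in each of the 3 libraries than in the 5 other SVZ libraries, while the astrocyte ranges overlapped.

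**Figure D3:**
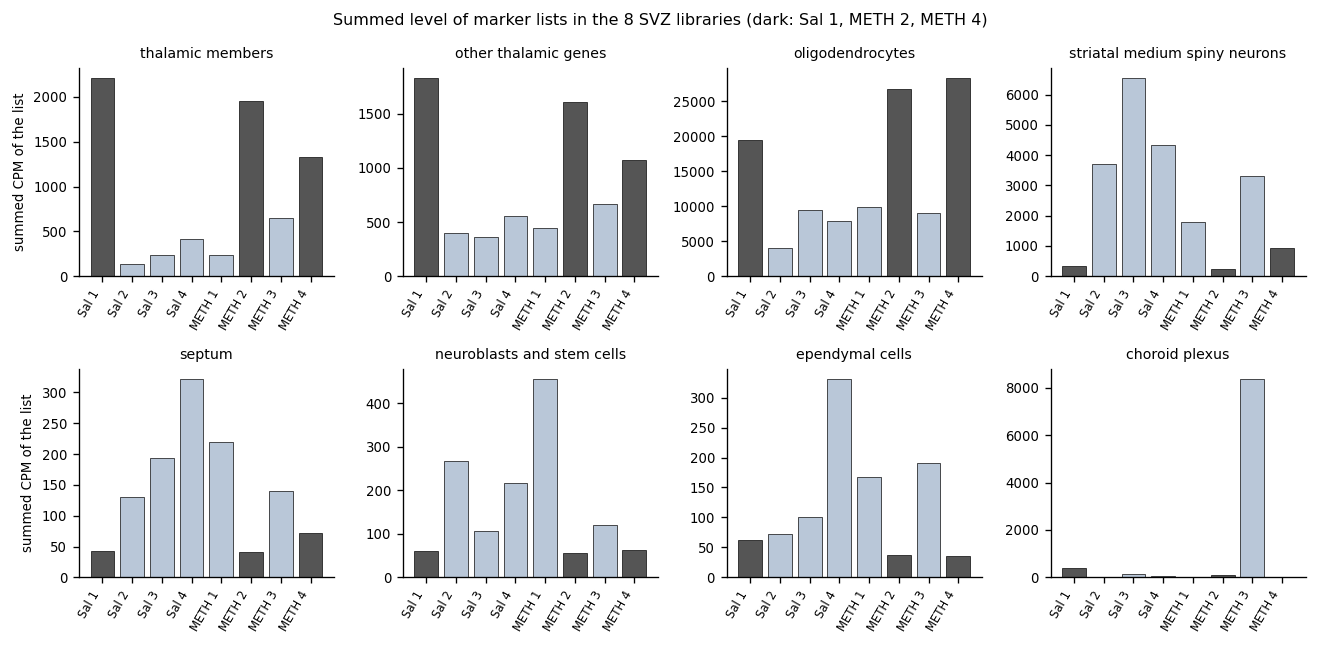
Summed CPM of 8 marker lists in each of the 8 SVZ libraries, on axes from 0, with SVZ Sal 1, METH 2 and METH 4 in dark gray. In these the thalamic and oligodendrocyte lists are highest and the striatal, septal, neuroblast and ependymal lists lowest, and choroid plexus stands out in METH 3 at 8384 CPM.

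Whether the SVZ differs from the other regions in these genes was tested in the METH libraries, since Prkcd was chosen in the saline ones. The other 7 genes were added with earlier results of these data known, so the METH values are not shown to be independent of their choice. In the SVZ METH libraries 5 of the 8 genes were called higher than the mean of the NAc, DG and CA, at an FDR under 0.01 and more than 2-fold by edgeR's quasi-likelihood test, where 2.02% of the 15615 genes tested were called. Prkcd had a log2 fold change of 4.33 ± 0.47 (SE, FDR = 0.000369), Lef1 of 3.01 ± 0.51 (FDR = 0.00194) and Tcf7l2 of 2.87 ± 0.39 (FDR = 0.000854). Zic1 had 2.86 ± 0.32 (FDR = 0.000425) and Rora 2.14 ± 0.41 (FDR = 0.00328). Slc17a6 (2.33 ± 0.62, FDR = 0.0151), Gbx2 (2.31 ± 0.59, FDR = 0.0121) and Ntng1 (1.56 ± 0.41, FDR = 0.0142) did not pass the test. The median of the 8 genes was 2.59 on the log2 scale, beside 0.05 over all genes. The lowest SVZ METH level was above the highest level of the 12 other METH libraries for Prkcd (79.1 against 77.4 CPM) and Zic1 (76.6 against 38.1 CPM), and the groups overlapped for the other 6 genes. The share of all genes with groups that did not overlap is not given for this comparison.

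The calls rested on few libraries. Without SVZ METH 2 and METH 4, left out after their values were seen, 2 of the 8 genes were called, where 166 of all 16102 genes tested were called. These were Prkcd at a log2 fold change of 2.75 ± 0.46 (FDR = 0.00531) and Zic1 at 2.91 ± 0.41 (FDR = 0.00253). Tcf7l2 was then at 1.74 ± 0.40 (FDR = 0.0208), Lef1 at 0.49 ± 0.41, Rora at 0.30 ± 0.33 and Ntng1 at 0.02 ± 0.41. Of the 8 genes, Zic1 was thus the 1 whose difference was as large without those libraries. Leaving out SVZ METH 2 or METH 4 alone gave 3 calls (Prkcd, Tcf7l2 and Zic1 in both cases), and leaving out SVZ METH 1 gave 8. The share of all genes called is not given for these fits. With METH 1 and 2 summed as 1 sample and METH 3 and 4 as another, 7 genes were called and Slc17a6 was not (FDR = 0.0343). There 191 of all 16020 genes tested were called. This fit has 2 SVZ samples, each joining a library with high Prkcd to one with less, so the spread between those libraries is averaged.

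**Figure D4:**
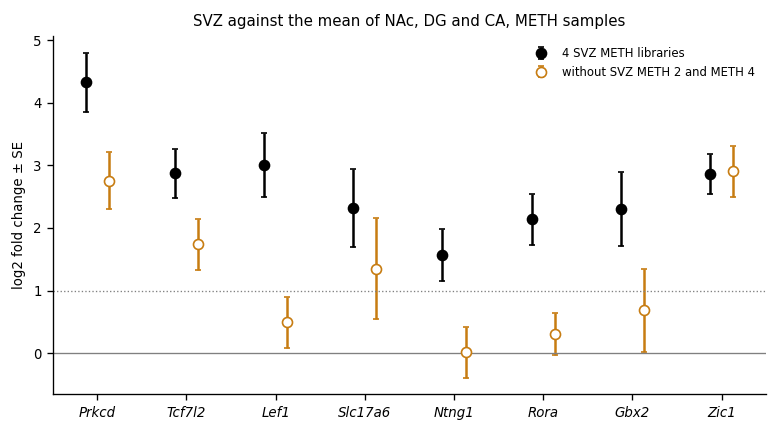
Log2 fold change ± SE of the SVZ against the mean of the NAc, DG and CA in METH libraries for each of the 8 genes, with the 4 SVZ METH libraries (black) and without SVZ METH 2 and METH 4 (open, orange). The value of Zic1 stays near 2.9 and the values of Lef1, Ntng1 and Rora come to 0.02 to 0.49 without the 2 libraries, and the dotted line marks a 2-fold difference.

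Among the 15 other thalamic genes, 8 were called higher in the SVZ METH libraries, where 2.02% of the 15615 genes tested were called. These were Grid2ip (log2 fold change 3.46 ± 0.28), Synpo2 (3.97 ± 0.51), Shox2 (7.95 ± 0.95), Zic4 (2.48 ± 0.38), Rgs16 (2.82 ± 0.43), Ramp3 (2.66 ± 0.42), Plekhg1 (2.1 ± 0.38) and Vipr2 (2.63 ± 0.49), with FDR from 6.83e-05 to 0.00295. The median of the list was 2.25. Grid2ip, a scaffold of glutamate receptors known from cerebellar synapses, was at 11.9, 45.8, 35.1 and 22.5 CPM in SVZ METH 1 to 4, above each of the other METH libraries. For the other called genes the SVZ METH libraries overlapped those of the other regions. Apart from Grid2ip and Zic4, the called genes were highest in SVZ METH 2 and METH 4. Vipr2, for example, was at 3.78, 46.0, 3.58 and 43.8 CPM in SVZ METH 1 to 4. Values of this list without SVZ METH 2 and METH 4 are not given. Necab1, the list's most abundant gene, had -0.54 ± 0.32 (FDR = 0.224).

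In the other 3 regions the 8 genes were seldom called. The NAc had 1 call among them, where 0.794% of genes were called. It was Gbx2, at 2.72, 3.10, 1.11 and 1.87 CPM in NAc METH 1 to 4, with a log2 fold change of 3.15 ± 0.58 (FDR = 0.00583) against the mean of the other regions. The SVZ METH libraries overlapped those of the NAc for Gbx2, and the call was lost (FDR = 0.0106 to 0.0311) without NAc METH 1, 2 or 4, DG METH 1 or 4, or CA METH 1, 2 or 4, with the RNA integrity number as a covariate (FDR = 0.0253), in 1 fit of all 32 libraries (FDR = 0.0337) and with the other regions pooled (FDR = 0.265). In the DG, where 1.18% of genes were called higher, and in the CA, where 0.333% were, 0 of the 8 genes were called higher. Calls of lower levels were not planned, and the share of all genes called lower in the CA is not given. Zic1 was lower in the CA METH libraries, at 3.26, 7.72, 6.60 and 6.74 CPM, by a log2 fold change of -2.30 ± 0.42 (FDR = 0.00943), which passed the threshold narrowly. It missed it without NAc METH 1, 2 or 4, DG METH 1, 2 or 4, any of the CA METH libraries, or SVZ METH 2, 3 or 4, with FDR of 0.0102 to 0.0511. It also missed it with the RNA integrity number as a covariate (FDR = 0.0252), in 1 fit of all 32 libraries (FDR = 0.0450) and with the other regions pooled (FDR = 0.189).

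METH was compared with saline within each region, and 0 of the 8 genes passed both thresholds (FDR under 0.01, change of more than 1.5 times) in the NAc, DG, CA or SVZ, where 0% of all genes were called. At an unadjusted p under 0.05, 3.39% of all genes were found in the NAc, 12.8% in the DG, 7.16% in the CA and 2.58% in the SVZ, and of the 8 genes 1 was found, Ntng1 in the CA. DESeq2 also called 0 of the 8 genes in each region. The Sal and METH groups overlapped for each member tested in each region, whereas 2.26%, 7.39%, 4.43% and 1.6% of genes had groups that did not overlap in the NAc, DG, CA and SVZ. Gbx2 was not tested in the DG and CA, where it fell under the filter on low counts.

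In the SVZ the 6 genes with high values in 3 libraries had log2 fold changes of 0.47 to 0.68, with standard errors above 1. Prkcd had 0.51 ± 1.07 (FDR = 0.980), Tcf7l2 0.65 ± 1.02, Lef1 0.65 ± 1.31, Slc17a6 0.68 ± 1.33, Ntng1 0.47 ± 1.17 and Rora 0.56 ± 1.02, each with an FDR of 0.979 or above. Gbx2 had -0.69 ± 1.17 and Zic1 -0.15 ± 0.43. The saline libraries that served to pick Prkcd enter here too, so this comparison is not independent of the choice. The value depended on single libraries. Without SVZ Sal 1 the log2 fold change of the 6 genes was 2.18 to 3.21, with FDR of 0.270 to 0.278, and without SVZ METH 2 it was -0.01 for Prkcd and -0.19 for Lef1. Within the 4 libraries with EXTRA in the header Prkcd had 0.54 (FDR = 0.990), and within the 4 without it 0.39 (FDR = 0.999).

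The 8 genes in the SVZ thus had a median log2 fold change of 0.54, beside 0.02 over all genes, and the 15 other thalamic genes one of 0.46, with 0 called. The oligodendrocyte list moved beside them, with 1 of the 4 Sal and 2 of the 4 METH libraries at 19437 CPM or above. Its part in the values was not tested.

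**Figure D5:**
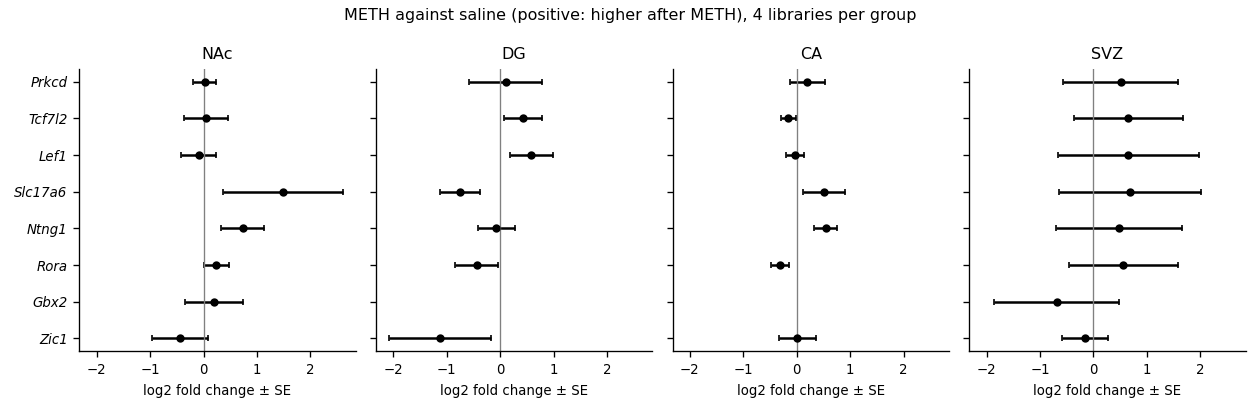
Log2 fold change ± SE of METH against saline for the 8 genes in each region, with 4 libraries per group and positive values for more after METH. The bars in the SVZ span more than 1 unit to each side for 7 genes, while those in the CA are shorter than 0.4 to each side, and Gbx2 is absent in the DG and CA because it was not tested there.

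In the CA, Ntng1 was at 24.6, 32.8, 45.4 and 31.4 CPM in Sal 1 to 4 and at 33.7, 58.4, 44.6 and 58.7 CPM in METH 1 to 4. The groups overlapped, since METH 1 and METH 3 lay under Sal 3, and the log2 fold change was 0.54 ± 0.22 by edgeR's quasi-likelihood test (FDR = 0.687). The other 6 genes tested in the CA lay between -0.31 and 0.51 on the log2 scale.

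In the NAc, Slc17a6 was at 0.527, 36.2, 15.7 and 17.9 CPM in Sal 1 to 4 and at 13, 12.0, 156.2 and 13.3 CPM in METH 1 to 4. NAc METH 3 stood far above the 7 others, which overlapped. The log2 fold change was 1.48 ± 1.13 (FDR = 0.999), -0.45 without NAc METH 3 and -0.42 with the sequencing run as a covariate. In the NAc only the run of Sal 3, Sal 4, METH 1 and METH 2 held both treatments, so the last value rests on these. NAc METH 3 also held the hypothalamic markers given above, Oxt at 884.6 and Avp at 670.5 CPM among them, and Prkcd at 13.9 CPM, the lowest of the 8 NAc libraries. Ntng1, at 7.99 to 28.2 CPM in the Sal and 18.0 to 40.5 CPM in the METH libraries, had 0.73 ± 0.40 (FDR = 0.999). The other 6 genes lay between -0.44 and 0.24.

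The DG is the region where the header numbers given above stand on the opposite treatment from the NAc and CA. In the DG, Prkcd was at 18.2, 20.4, 65.8 and 15.7 CPM in Sal 1 to 4 and at 14.2, 23.2, 77.4 and 13.8 CPM in METH 1 to 4. The library labelled DG Sal 3 and DG METH 3 stood far above the other 3 of their groups. The log2 fold change was 0.10 ± 0.68 (FDR = 0.980), -0.08 without both and -1.82 with the sequencing run as a covariate. In the DG only the run of METH 1, METH 2 and the library labelled DG Sal 3 held both treatments. Values with the run as a covariate thus rest on that 1 saline library. Zic1 was at 4.46, 8.30, 118.1 and 28.3 CPM in Sal 1 to 4 and at 12.5, 12.7, 38.1 and 9.35 CPM in METH 1 to 4. Its log2 fold change was -1.13 ± 0.96 (FDR = 0.695), 0.41 without the library labelled DG Sal 3 and -3.23 with the run as a covariate. Slc17a6 had -0.75 ± 0.38 (FDR = 0.455) and was highest in DG Sal 4, at 63.6 CPM, a library with 337.1 CPM of habenular markers, against 57.5 to 106.3 CPM in the other DG libraries. DG METH 3, the highest of the DG libraries for Prkcd, Tcf7l2 and Lef1, held 6288 CPM of choroid plexus and 14986 CPM of oligodendrocyte markers, the most of both in the DG. The part of these other tissues in the values was not tested.

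A METH effect that differs between regions was tested in 1 fit of all 32 libraries. It was found at an FDR under 0.01 for 0 of the 8 genes and 0% of all genes, and at an unadjusted p under 0.05 for 7.74% of all genes and 0 of the 8 genes. The FDR of the 8 genes ran from 0.971 to 1.00.

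Averaged over both treatments, 7 of the 8 genes had their highest regional mean in the SVZ and Gbx2 had it in the NAc. The saline libraries in which Prkcd was chosen enter these means. The share of all genes with their highest mean in the SVZ is not given, so such counts are descriptions only. For Prkcd the means were 359.0 ± 362.9 (SD, n = 8) CPM in the SVZ, 31.1 ± 25.4 in the DG, 21.4 ± 4.43 in the NAc and 12.7 ± 4.31 in the CA. The SVZ (from 33.0 CPM) and DG (up to 77.4 CPM), next to each other in this order, overlapped. The DG and NAc overlapped too, and so did the NAc and CA. For Zic1 they were 93.8 ± 37.1 CPM in the SVZ, 29 ± 37.8 in the DG, 19.6 ± 12.2 in the NAc and 6.06 ± 2.15 in the CA. The SD of Prkcd in the SVZ was as large as its mean, and that of Zic1 well under its mean. Without SVZ Sal 1, METH 2 and METH 4, 4 of the 8 genes had their highest mean in the SVZ, with Prkcd and Zic1 among them.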

How the data were processed

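RNA-seq libraries from 4 brain regions were used, with 4 saline and 4 METH libraries per region. The authors trimmed reads with cutadapt 2.7, aligned them to rn6 with STAR 2.5.2b and deposited whole-number counts per gene made by featureCounts 1.6.3 (per the file headers and the submitters' processing notes). From these counts, of which a library holds 11094002 to 21869773, CPM was computed on upper-quartile library sizes. Differences were tested with edgeR 4.0.16 (R 4.3.3) by the quasi-likelihood test after its filter on low counts, with Benjamini-Hochberg adjustment (FDR) over all genes tested, in the 8 libraries of each region (METH against saline), in the 16 METH libraries (regions) and in all 32 (interaction). DESeq2 1.42.0, other normalizations, covariates and left-out libraries were alternatives. Fits were tested on simulated data. Each of the 8 genes was named, of the marker lists the 3 most abundant and the called genes, and the genes most like each member by correlation. Markers named at 0 reads (Otx2, Pou4f1) were chosen after their values were seen. The members and lists were chosen with earlier results of these data known.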

Additional observations from a re-analysis of the deposited data

Results flagged for a closer look

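Of 64 groups of 4 libraries (8 genes in 8 groups), 13 held a library whose gap to the nearest other, divided by the range of the group, was above Dixon's 95% critical value for 4 samples. Chance exceeds this value in about 1 in 20 groups if values are normally distributed, which CPM need not be. The share over all genes is not given, so the 13 cannot be read as more than chance would give. In each of the 13 the highest library was the one apart. SVZ Sal 1 was apart for Prkcd (936.7 CPM), Tcf7l2 (260.7 CPM), Lef1 (110.9 CPM), Slc17a6 (308.0 CPM), Ntng1 (258.8 CPM) and Rora (208.2 CPM). The 3 other SVZ saline libraries reached at most 121.8 CPM of Prkcd and 7.37 CPM of Lef1. These 6 values come from 1 library and are not independent of each other. That library is among the saline libraries in which Prkcd was chosen.

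The library labelled DG Sal 3 was apart for Prkcd (65.8 CPM) and Gbx2 (2.41 CPM, 38 reads), and DG METH 3 for Prkcd (77.4 CPM) and Zic1 (38.1 CPM). NAc METH 3 was apart for Slc17a6 (156.2 CPM) and Zic1 (32.3 CPM). CA Sal 3 was apart for Gbx2 at 0.424 CPM, which rests on 7 reads. A METH effect that differs between regions was found for 0 of the 8 genes.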

How the results depend on the processing

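The number of the 8 genes called higher in the SVZ METH libraries (5) was 8 at an FDR under 0.05 and with DESeq2, 3 with the replicate block, 3 to 8 with 1 library left out and 2 without SVZ METH 2 and METH 4. For the last of these 166 of all 16102 genes were called, and for the others that share is not given. In the main fit 6229 of 15615 genes, and all 8 members, had an unadjusted p under 0.05 by edgeR's quasi-likelihood test. In the NAc the 1 call became 0 with the RNA integrity number as a covariate, in 1 fit of all 32 libraries and with the other regions pooled, and was 0 to 1 with 1 library left out. The 7 genes with their highest mean in the SVZ were 4 without SVZ Sal 1, METH 2 and METH 4. METH against saline called 0 of the 8 genes under each alternative run.

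Some log2 fold changes of METH against saline, none of them called, changed sign, and the cause was not tested. Prkcd in the DG was -0.052 with the RNA integrity number, -0.023 with the replicate block, -0.21 and -0.26 with 2 and 4 RUVr factors, -1.82 with the sequencing run, -0.078 without DG Sal 3 and METH 3, and -0.82 to 0.84 with 1 library left out. Zic1 in the SVZ was 0.055 with the replicate block, 0.0062 with 4 RUVr factors, 0.045 without SVZ Sal 1, METH 2 and METH 4, 0.12 within the EXTRA libraries, and -0.46 to 0.15 with 1 library left out. Gbx2 in the SVZ was 0.17 with the replicate block, and Slc17a6 in the NAc was -0.42 with the sequencing run. With 1 library left out, the ranges were -0.45 to 2.11 for Slc17a6 in the NAc, -1.80 to 0.41 for Zic1 in the DG, and in the SVZ -0.013 to 2.33 for Prkcd, -0.19 to 3.21 for Lef1, -0.14 to 2.7 for Ntng1 and -0.051 to 2.18 for Rora. Alternatives with the run, EXTRA or several libraries left out were chosen after seeing the data. Run and treatment were nearly confounded in the NAc and DG, and the DG values with the run rest on DG Sal 3 as the only saline library.

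The replicate numbers were not taken to pair libraries, since same-numbered libraries correlated above 0.1 in 1 of 4 pairs in the NAc and SVZ, 3 of 4 in the DG, 2 of 4 in the CA and 7 of 24 between regions. Within a treatment, library numbers in the headers match the replicate numbers between the NAc and CA, and for replicates 3 and 4 in the DG too. DG replicates 1 and 2 carry numbers of the opposite treatment. The replicate block thus follows most of these links in the METH libraries of the NAc, DG and CA. No fit was made on the header numbers themselves. The headers of the SVZ libraries carry none of these numbers, so a block on the header numbers could not be separated from the SVZ. A column name of the deposited count matrix gives SVZ Sal 1 the number 14, which was not used. Few libraries per group and the spread in the SVZ (common coefficient of biological variation 0.373, against 0.199 in the CA) limit what METH effects could be detected.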
